A study of Mus musculus with 22 samples.

Results

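Serpins are protease inhibitors, and the urokinase system is the small group of secreted proteases, receptors and inhibitors that turns plasminogen into plasmin at cell surfaces. The 7 genes described here belong to this machinery: Plau and Plat, the urokinase-type and tissue-type plasminogen activators, Plaur, the urokinase receptor, and the inhibitors Serpinb2, Serpina3f, Serpina3g and Serpinb1a. They were chosen by name, and every array probe whose RefSeq accession maps to one of these symbols was taken. That gave 7 probes for 6 of the 7 genes, of 28054 probes kept on the array and 22347 genes tested. Serpina3f had 2 probes, and Serpina3g had no probe named through the RefSeq table used here and is given no value.

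Gene expression was measured on 22 one-colour Agilent arrays of bone marrow-derived macrophages (BMDM), grown from the femurs of C57BL/6 mice aged 10 to 14 weeks and labelled male, and differentiated with M-CSF, the growth factor of macrophages. The 6 groups were wild-type (wt) cells with LPS (3 arrays) or medium (4 arrays), MK2-/- cells with LPS (4 arrays) or medium (4 arrays), and MK2/3-/- cells, which lack both kinases, with LPS (4 arrays) or medium (3 arrays). LPS, the bacterial cell wall component that activates TLR4, was given at 100 ng/ml, and all cells were harvested at 360 min. MK2 and MK3 are kinases activated by p38 MAPK, and both knockouts are constitutive, so the kinases were also missing while the macrophages differentiated. No group lacked MK3 alone.

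Some facts of the arrays bear on every value below. Each genotype was hybridised on a slide of its own, so that genotype and slide cannot be told apart in comparisons between genotypes, whereas LPS and medium shared a slide within each genotype. By scan date, the wt slide was scanned on another day than both knockout slides. Scan day likewise cannot be told apart from genotype in either knockout's difference from wt. Between 61.7 and 83.0% of spots per array were well above background, and the number of arrays limits the precision. Mapkapk2, which encodes MK2, had log2 signals of 14.28 to 15.33 in LPS-treated wt BMDM, 11.25 to 11.95 in MK2-/- and 10.86 to 11.22 in MK2/3-/- BMDM, and Mapkapk3 was at 7.66 to 8.55 in LPS-treated MK2/3-/- BMDM against 11.92 to 12.57 in MK2-/-. Of 8 macrophage markers 7 had a named probe, and their summed log2 level lay between 18.75 and 19.53 on every array, and none of the 7 stayed at background. Of 5 stromal and endothelial markers all had a probe, and their summed level ranged from 9.11 to 16.64. The summed level of 5 dendritic cell markers was 8.41 to 9.95 with medium and 12.58 to 15.00 with LPS, beside the LPS responses below, in which its part was not tested. The brightest markers carry such a sum, and these markers did not move together. In wt the mean went from 8.05 with medium to 12.62 with LPS for Ccr7 and from 6.87 to 10.58 for Zbtb46. It went from 6.87 to 6.03 for Flt3, from 4.98 to 3.63 for Cd209a and from 2.56 to 3.26 for Xcr1. The sums were 11.83 to 14.09 for 9 neutrophil markers with a probe, 9.03 to 10.85 for mast cell, 7.91 to 10.53 for B cell, 9.77 to 12.33 for T cell and 13.65 to 15.51 for megakaryocyte markers. Of the last, Pf4 alone was at 13.65 to 15.5. The LPS and medium arrays of MK2-/- replicate 3 had low Y-linked signal against their label, and the LPS array of that pair also had 2927 outlier-flagged spots against 115 to 261 on the others. The labels name no mouse or culture for an array. LPS and medium arrays of a genotype that carry the same letter in their array names have the same age, but whether they share a preparation is not stated. Their stromal and endothelial sums (LPS and medium) were 15.85 and 16.64, 13.43 and 13.63, and 14.32 and 14.75 in wt. In MK2-/- they were 10.98 and 11.14, 10.3 and 10.46, 12.46 and 12.63, and 14.16 and 14.66. In MK2/3-/- they were 10.1 and 9.112, 10.46 and 10.56, and 14.83 and 15.5. The main fit treats the arrays as unpaired, and p-values measure the spread between these arrays.

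In the plasminogen system, urokinase binds its receptor on the cell surface and cuts plasminogen to plasmin, which digests fibrin and matrix and activates further proteases. Tissue-type plasminogen activator does the same mainly on fibrin. Serpins stop such enzymes by acting as bait: the protease cuts an exposed loop and is trapped in a covalent complex. Serpinb2, also called plasminogen activator inhibitor 2, is among the best known LPS-inducible transcripts of macrophages, Serpinb1a inhibits neutrophil elastase and related enzymes, and Serpina3f and Serpina3g belong to a cluster of mouse A3 serpins, of which Serpina3g is an inhibitor of lysosomal cathepsins.

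The promoters are shown for the members with a listed sequence that LPS raised, from 250 bases before to 50 bases after the first listed transcription start (RefSeq, GRCm38.p6, plus strand, 5′ to 3′). The table held a promoter for 4 of the 7 members. Serpina3f starts in chr12:104214294-104214593, Serpinb2 in chr1:107511173-107511472 and Plaur in chr7:24462233-24462532.
Serpina3f: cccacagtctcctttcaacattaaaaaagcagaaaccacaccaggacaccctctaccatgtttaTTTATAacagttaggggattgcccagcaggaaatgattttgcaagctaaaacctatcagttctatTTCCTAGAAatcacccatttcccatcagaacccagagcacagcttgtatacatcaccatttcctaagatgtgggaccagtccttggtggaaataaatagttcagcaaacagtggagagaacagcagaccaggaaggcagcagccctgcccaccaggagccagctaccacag
Serpinb2: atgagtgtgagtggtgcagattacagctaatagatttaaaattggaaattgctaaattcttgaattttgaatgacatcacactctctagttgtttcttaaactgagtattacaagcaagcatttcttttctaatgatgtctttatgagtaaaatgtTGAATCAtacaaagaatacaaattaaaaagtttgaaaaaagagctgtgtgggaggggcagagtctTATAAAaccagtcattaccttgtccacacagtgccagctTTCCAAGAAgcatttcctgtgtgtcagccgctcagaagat
Plaur: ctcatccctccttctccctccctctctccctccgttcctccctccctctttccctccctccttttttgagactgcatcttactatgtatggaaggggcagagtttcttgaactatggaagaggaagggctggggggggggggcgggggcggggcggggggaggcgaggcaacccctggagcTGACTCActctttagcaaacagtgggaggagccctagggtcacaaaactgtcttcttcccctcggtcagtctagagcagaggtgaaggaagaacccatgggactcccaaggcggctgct
Capitals mark matches to 6 motifs that were searched on both strands, and the matches shown do not overlap each other. An AP-1 site (TGANTCA) was found as TGAATCA 94 bases upstream of the start of Serpinb2 and as TGACTCA 69 bases upstream of that of Plaur, and 7.81% of 32851 promoters of this length hold one. A gamma-activated sequence (TTCNNNGAA), the kind of site bound by STAT factors, was found as TTCCTAGAA 121 bases upstream of the Serpina3f start and as TTCCAAGAA shortly after the Serpinb2 start, against 8.3% of all promoters. The TATA box core (TATAAA) lay 29 bases upstream of the Serpinb2 start and, on the other strand, 186 bases upstream of the Serpina3f start, against 13.6%. The other 3 motifs, the core of the interferon-stimulated response element (in 3.44% of promoters), the CRE site (TGACGTCA, 1.79%) and a form of the NF-kB site (1.63%), had no match in these 3 windows. Such matches describe letters and not binding.

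Upon stimulation with LPS, 4 of the 6 measured genes rose and 1 fell in each genotype. Plat, Serpinb2, Serpina3f and Plaur were higher with LPS than with medium, Plau was lower, and Serpinb1a was not called in any genotype. All values are log2 signals after quantile normalisation, and a gene was called where the adjusted p of limma (Benjamini-Hochberg over 22347 genes) was below 0.05. Calls were common: 42.2% of all genes were called with LPS in wt BMDM (18.6% higher, 23.5% lower), 44.7% in MK2-/- (17.6% higher, 27.2% lower) and 48.3% in MK2/3-/- (20.3% higher, 28% lower). A scaling to the 75th percentile of each array in place of quantile normalisation raised the median LPS response of all genes by 0.34, 0.29 and 0.27 in the 3 genotypes and the share of higher genes among those called from 44.2 to 60.5%, from 39.3 to 53.6% and from 42.1 to 54.1%, while the 5 members kept their calls and directions. The median LPS response of the 6 members was 3.61 in wt, 4.23 in MK2-/- and 4.64 in MK2/3-/- BMDM, beside medians of all genes of -0.04, -0.01 and 0.02. The study itself selected Serpina3f from these arrays and also measured it by RT-qPCR. It reported less Serpina3f transcript in MK2-/- BMDM, at least partly restored in MK2/3-/-, and no significant impairment in BMDM lacking MK3 alone. The changes of Serpina3f are therefore not independent evidence. The study's list of regulated genes for a shorter LPS treatment than here names Serpinb2 and Plaur. It places both in groups defined by less transcript in MK2-/- than in wt BMDM, for Plaur with more in MK2/3-/- than in MK2-/-. On the arrays used here, at a later time, neither was called between MK2-/- and wt with LPS. Both sets of arrays come from the same study.

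**Figure D1:**
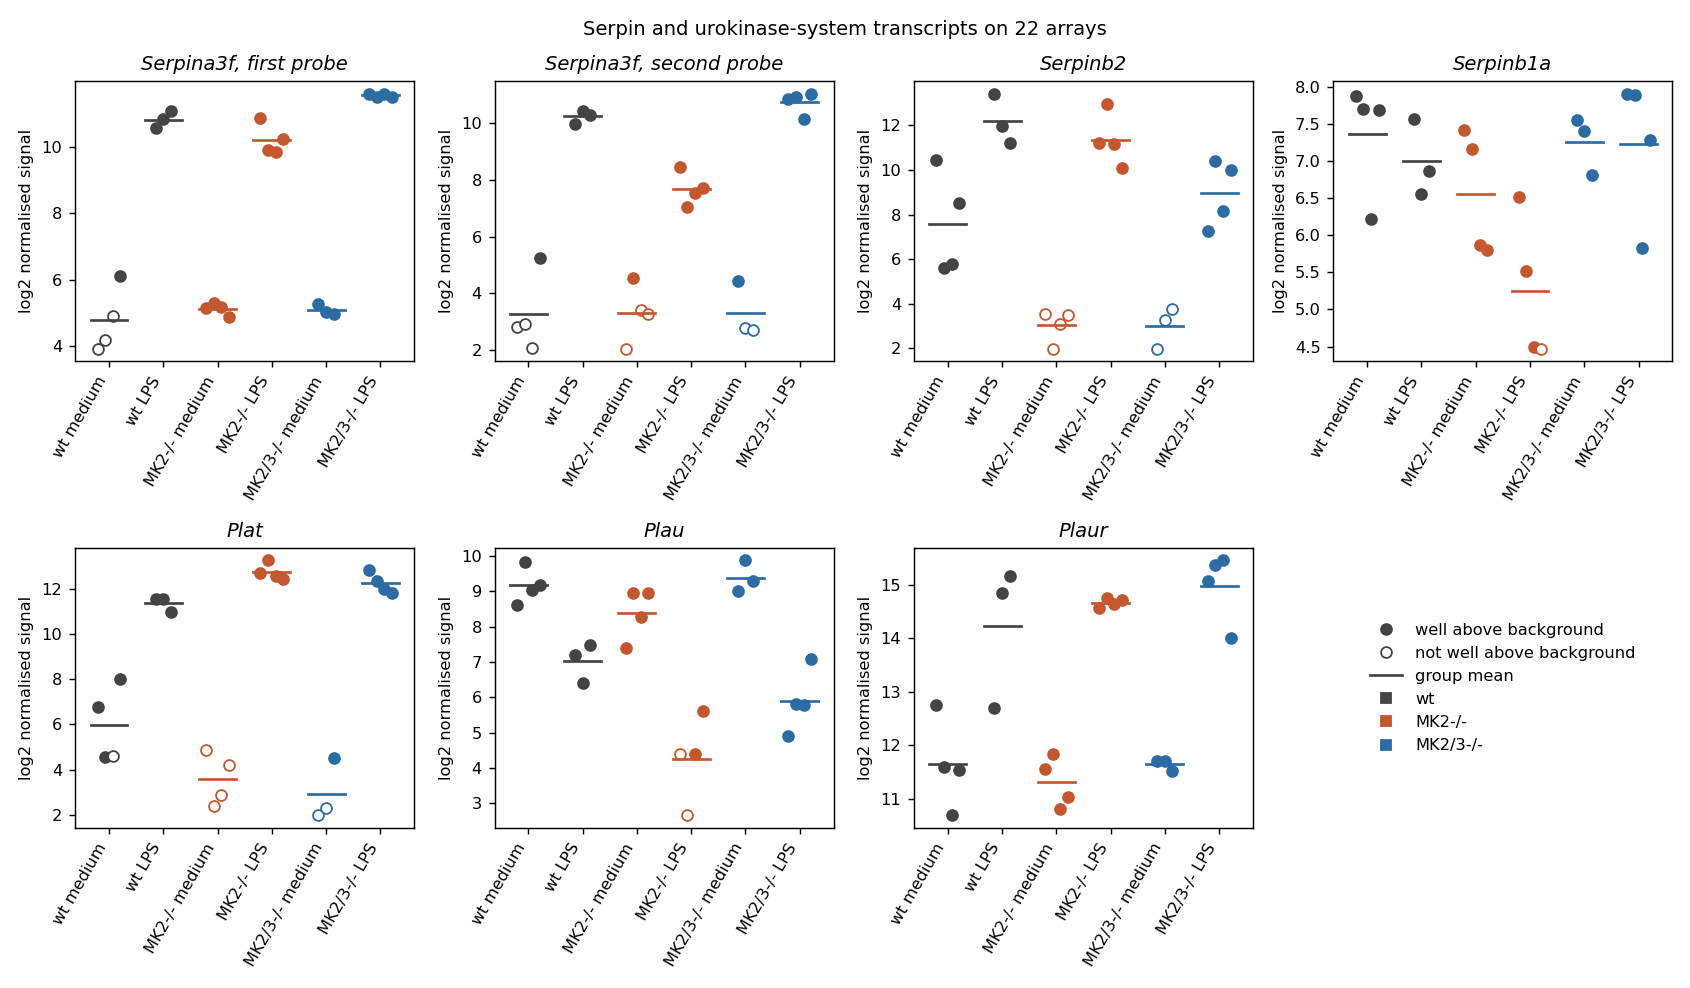
Log2 signal of each probe (vertical axes) on each of the 22 arrays, by genotype and treatment (horizontal axis). Filled points are well above background and open points are not. Plat, Serpinb2 and Serpina3f sit higher with LPS than with medium on all arrays of every genotype, and Plau sits lower.

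Of the plasminogen activators, Plat was raised in every genotype. In wt BMDM its log2 signals were 11.54, 11.53 and 10.99 with LPS and 6.77, 4.55, 4.59 and 7.998 with medium. The MK2-/- arrays were at 12.69, 13.25, 12.56 and 12.42 with LPS and 4.86, 2.40, 2.86 and 4.22 with medium, and in MK2/3-/- BMDM they were 12.83, 12.32, 11.97 and 11.80 with LPS and 1.985, 2.29 and 4.52 with medium. LPS and medium arrays did not overlap in any genotype, and the medium signals of the knockouts were not well above background on 6 of 7 arrays. The LPS response of Plat was 5.38 ± 0.75 (SE) on the log2 scale in wt, a 41.5-fold rise (adjusted p 1.18e-05). In MK2-/- BMDM, where no medium array measured the gene, the log2 difference was 9.14 ± 0.70 (SE, adjusted p 3.09e-09). In MK2/3-/-, where 1 of 3 medium arrays did, it was 9.30 ± 0.75 (SE, adjusted p 7.73e-09). Where no array of a group was well above background, a difference rests on dim signals, and its size is no lower bound.

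Plau, which encodes urokinase itself, moved the other way. Its log2 signals in wt BMDM were 8.63, 9.84, 9.04 and 9.19 with medium and 7.19, 6.41 and 7.49 with LPS. The MK2-/- arrays were at 7.39, 8.96, 8.27 and 8.96 with medium and 4.40, 2.66, 4.40 and 5.61 with LPS, of which 2 LPS arrays were well above background. The MK2/3-/- arrays were at 9.02, 9.88 and 9.28 with medium and 4.89, 5.82, 5.79 and 7.10 with LPS. Every LPS array lay below every medium array of its genotype. Plau fell by 2.15 ± 0.58 (SE) in wt, a 4.43-fold decrease (adjusted p 0.00555), by 4.13 ± 0.54 in MK2-/- (17.5-fold, adjusted p 2.95e-06) and by 3.49 ± 0.58 in MK2/3-/- BMDM (11.3-fold, adjusted p 5.03e-05).

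Plaur, the receptor that holds urokinase at the cell surface, was bright on every array. In wt BMDM its log2 signals were 12.75, 11.59, 10.69 and 11.53 with medium and 12.69, 14.85 and 15.16 with LPS, so that the groups overlapped through replicate 1 of each. The MK2-/- arrays were at 11.56, 11.84, 10.81 and 11.02 with medium and 14.55, 14.76, 14.63 and 14.71 with LPS. The MK2/3-/- arrays were at 11.71, 11.70 and 11.51 with medium and 15.06, 15.36, 15.45 and 14.01 with LPS. In both knockouts all LPS arrays lay above all medium arrays. The LPS response of Plaur was 2.59 ± 0.51 (SE) in wt (6.03-fold, adjusted p 0.000392), 3.36 ± 0.47 in MK2-/- (10.2-fold, adjusted p 7.24e-06) and 3.33 ± 0.51 in MK2/3-/- BMDM (10.1-fold, adjusted p 1.93e-05). Without wt LPS replicate 1 the wt response was 3.36 (adjusted p 9.8e-06).

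Serpinb2, the inhibitor of both plasminogen activators, was raised from very different medium levels. In wt BMDM its log2 signals were 10.43, 5.59, 5.77 and 8.51 with medium and 13.42, 11.98 and 11.20 with LPS. In MK2-/- BMDM they were 3.56, 1.985, 3.11 and 3.49 with medium, none well above background, and 11.23, 12.97, 11.18 and 10.09 with LPS. The MK2/3-/- arrays were at 1.985, 3.27 and 3.76 with medium, again none above background, and 7.25, 10.42, 8.17 and 9.98 with LPS. All LPS arrays lay above all medium arrays within each genotype. The LPS response of Serpinb2 was 24.7-fold in wt (4.63 ± 1.02 on the log2 scale, SE, adjusted p 0.00121). From the dim medium signals of the knockouts, the log2 differences were 8.33 ± 0.95 in MK2-/- (SE, adjusted p 5.51e-07) and 5.95 ± 1.02 in MK2/3-/- BMDM (SE, adjusted p 7.52e-05). The wt response ranged from 3.96 without wt medium replicate 2 to 5.58 without wt medium replicate 1, and was 4.02 without wt medium replicate 3 or wt LPS replicate 1.

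Serpina3f, a clade A3 serpin, was raised from a level near background. On its brighter probe (A_55_P2104975) the log2 signals were 3.92, 4.18, 4.92 and 6.11 in wt BMDM with medium and 10.56, 10.83 and 11.08 with LPS. In MK2-/- BMDM they were 5.13, 5.29, 5.16 and 4.86 with medium and 10.87, 9.91, 9.85 and 10.24 with LPS. In MK2/3-/- BMDM they were 5.28, 5.02 and 4.96 with medium and 11.59, 11.50, 11.60 and 11.51 with LPS. The 4 LPS arrays of MK2/3-/- BMDM lay above all 7 others with LPS. The LPS response of Serpina3f on this probe was 65.9-fold in wt (6.04 ± 0.36, SE, adjusted p 6.14e-10), with 1 of 4 medium arrays well above background, 34.5-fold in MK2-/- (5.11 ± 0.34, adjusted p 4.82e-10) and 88.3-fold in MK2/3-/- BMDM (6.46 ± 0.36, adjusted p 1.15e-10).

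The other Serpina3f probe (A_55_P2142226) was lower in MK2-/- BMDM after LPS. Its log2 signals with LPS were 9.99, 10.46 and 10.29 in wt, 8.46, 7.05, 7.54 and 7.71 in MK2-/- and 10.88, 10.94, 10.14 and 11.05 in MK2/3-/- BMDM. With medium they ranged from 2.05 to 5.25 in wt, from 2.03 to 4.53 in MK2-/- and from 2.71 to 4.43 in MK2/3-/- BMDM, with 1 array of each genotype well above background. All 4 MK2-/- arrays with LPS lay below those of the other genotypes. In a fit over all 28054 kept probes, in which 42.1% of probes were called with LPS in wt, 45.5% in MK2-/- and 48.7% in MK2/3-/-, the log2 LPS responses of this Serpina3f probe were 6.99 ± 0.63, 4.38 ± 0.59 and 7.46 ± 0.63 (SE, adjusted p 6.12e-08, 4.33e-06 and 1.41e-08), measured against medium groups in which the other arrays were not above background. The A3 serpins are similar in sequence and the probes were not aligned here, so that either probe may also report a neighbour of Serpina3f.

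Serpinb1a, the inhibitor of neutrophil elastase, was dim. Its log2 signals in wt BMDM were 7.88, 7.70, 6.22 and 7.69 with medium and 7.57, 6.56 and 6.87 with LPS. In MK2-/- BMDM they were 7.42, 7.16, 5.86 and 5.81 with medium and 6.51, 5.52, 4.49 and 4.47 with LPS, of which the last was not well above background. In MK2/3-/- BMDM they were 7.55, 7.40 and 6.81 with medium and 7.91, 7.90, 5.83 and 7.29 with LPS. LPS and medium overlapped in every genotype, although in MK2-/- each LPS array lay below the medium array of the same replicate number. The LPS responses of Serpinb1a were -0.37 (95% interval -1.59 to 0.85, adjusted p 0.658) in wt, -1.31 (-2.44 to -0.18, adjusted p 0.0552) in MK2-/- and -0.02 (-1.25 to 1.20, adjusted p 0.978) in MK2/3-/- BMDM. In MK2-/- the fall was called under 3 of 15 alternative settings and in 5 of 22 fits that left out 1 array.

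With normexp background correction the LPS responses from dim medium or LPS signals were smaller, and all stayed called in the same direction. For Plat they were 4.13, 6.30 and 6.03 in wt, MK2-/- and MK2/3-/- BMDM, for Serpinb2 3.96, 5.21 and 3.02, and for Serpina3f 4.12, 3.52 and 4.81. For Plau they were -2.13 in MK2-/- and -2.50 in MK2/3-/- BMDM.

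**Figure D2:**
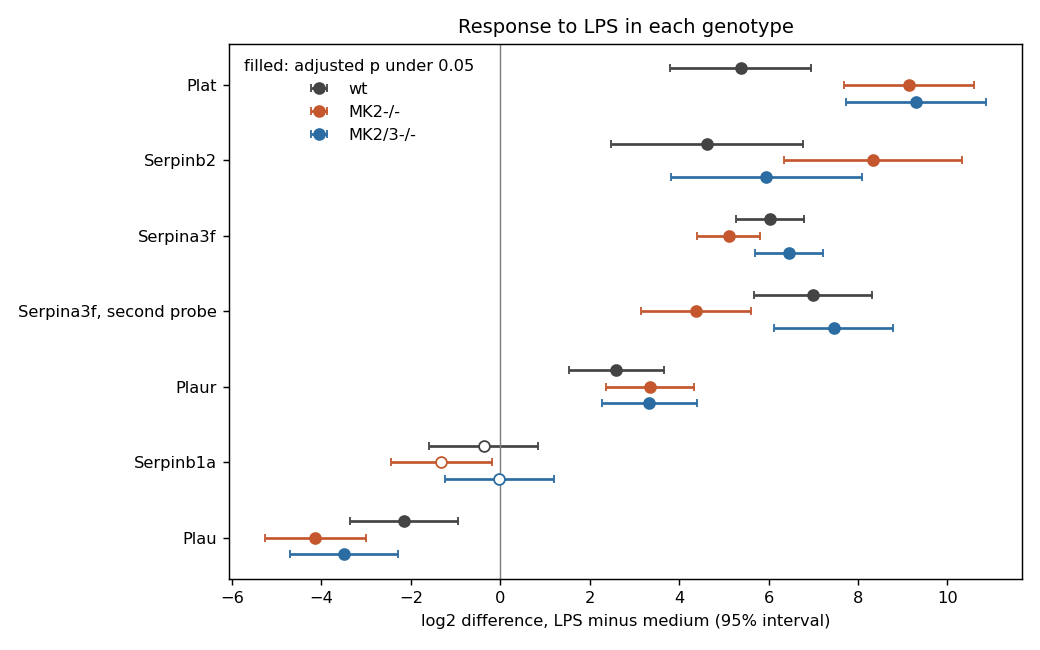
LPS minus medium (horizontal axis, log2 difference) for each probe, with 1 point per genotype and its 95% interval. Serpina3f, Plat, Serpinb2 and Plaur lie right of 0 in all 3 genotypes, Plau lies left of 0, and the intervals of Serpinb1a in wt and MK2/3-/- cover 0.

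To compare the genotypes after stimulation, the LPS-treated groups were set against each other. Plau was lower in MK2-/- than in wt BMDM, Serpinb2 was lower in MK2/3-/- than in wt BMDM, and Serpina3f, Serpinb1a and Plau were higher in MK2/3-/- than in MK2-/- BMDM. Of all genes, 11.6% were called between MK2-/- and wt (7.1% lower in MK2-/-), 23.7% between MK2/3-/- and wt (14% lower in MK2/3-/-) and 13.6% between MK2/3-/- and MK2-/- (7.75% higher in MK2/3-/-), and of the 6 members 1, 1 and 3 were called. These comparisons share groups of arrays.

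Plau, with LPS, was 6.79-fold lower in MK2-/- than in wt BMDM (log2 difference -2.76 ± 0.58, SE, adjusted p 0.00771), and the arrays did not overlap. Only 2 of the 4 MK2-/- arrays were well above background, and the difference was -1.12 (adjusted p 0.0289) with normexp background correction and had a Benjamini-Hochberg adjusted p of 0.115 by the methods' t-test. It was -1.13 (95% interval -2.34 to 0.08, adjusted p 0.166) in MK2/3-/- compared with wt. The difference between MK2/3-/- and MK2-/- was 1.64 ± 0.54 (SE, adjusted p 0.0493), with overlapping arrays, and it missed the threshold when any of 19 of the 22 arrays was left out. Without the arrays of low Y-linked signal it was 1.68 (adjusted p 0.0811), and with normexp background correction 0.48 (adjusted p 0.302).

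Serpinb2, with LPS, was 9.49-fold lower in MK2/3-/- than in wt BMDM (-3.25 ± 1.02, SE, adjusted p 0.028), and all 4 MK2/3-/- arrays lay below the 3 of wt. The call was lost without wt LPS replicate 1 (-2.64, adjusted p 0.131), wt LPS replicate 2 (adjusted p 0.0556), MK2/3-/- LPS replicate 1 (adjusted p 0.0856) or MK2/3-/- LPS replicate 3 (adjusted p 0.0612), with array weights (-2.78, adjusted p 0.0558) and in a fit on these groups alone (adjusted p 0.0636). The difference of MK2-/- from wt was -0.83 (95% interval -2.98 to 1.31, adjusted p 0.621), and that of MK2/3-/- from MK2-/- was -2.41 (-4.39 to -0.43, adjusted p 0.0985). The summed stromal and endothelial markers were at 15.85, 13.43 and 14.32 on the wt LPS arrays and at 10.10, 10.46, 12.99 and 14.83 on those of MK2/3-/-. In wt the array with the highest Serpinb2 also had the highest of these sums, and in MK2/3-/- it did not. Of the 5 markers 1 was called lower and 0 higher in MK2/3-/- than in wt with LPS, where 14% of all genes were lower. The part of these markers in the Serpinb2 difference was not tested. In such bulk samples fewer cells of a type and less RNA per cell cannot be told apart.

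Serpina3f, with LPS, was 2.51-fold higher in MK2/3-/- than in MK2-/- BMDM on the brighter probe (1.33 ± 0.34, SE, adjusted p 0.0133) and 8.38-fold higher on the other (3.07 ± 0.59, adjusted p 0.00186), while array weights gave 1.13 (adjusted p 0.0643) on the brighter one. The probes parted in the comparison of MK2-/- with wt. The brighter Serpina3f probe gave -0.60 (95% interval -1.36 to 0.16, adjusted p 0.275) and the other -2.56 ± 0.63 (SE), a 5.89-fold lower signal (adjusted p 0.0167). Between MK2/3-/- and wt BMDM neither Serpina3f probe was called, at 0.73 (-0.03 to 1.48, adjusted p 0.154) and 0.51 (-0.82 to 1.83, adjusted p 0.598), and normexp background correction gave 0.70 (adjusted p 0.0122) for Serpina3f on the brighter probe. In the fit over probes 11.6%, 23.7% and 13.4% of all probes were called in the comparisons of MK2-/- with wt, MK2/3-/- with wt and MK2/3-/- with MK2-/-.

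Serpinb1a, with LPS, was 3.95-fold higher in MK2/3-/- than in MK2-/- BMDM (1.98 ± 0.54, SE, adjusted p 0.0202), with overlapping arrays. The call was lost without MK2-/- LPS replicate 3 (1.73, adjusted p 0.0547), MK2-/- LPS replicate 4 (adjusted p 0.0602), MK2/3-/- LPS replicate 1 (adjusted p 0.0537) or MK2/3-/- LPS replicate 2 (adjusted p 0.0525), without both arrays of low Y-linked signal (1.73, adjusted p 0.057), or in a fit on these groups alone (adjusted p 0.0984). Between MK2-/- and wt BMDM the Serpinb1a arrays did not overlap, and the difference of -1.75 ± 0.58 (SE) had an adjusted p of 0.0567.

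Plat and Plaur were not called between genotypes with LPS. For Plat the differences from wt were 1.38 (95% interval -0.20 to 2.95, adjusted p 0.228) in MK2-/- and 0.88 (-0.70 to 2.45, adjusted p 0.422) in MK2/3-/- BMDM, although all arrays of both knockouts lay above those of wt. The Plat difference of MK2-/- from wt passed the threshold with normexp background correction (1.37, adjusted p 0.0166) and in a fit on these groups alone (adjusted p 0.0308). For Plaur the differences from wt were 0.43 (-0.63 to 1.49, adjusted p 0.604) and 0.74 (-0.32 to 1.80, adjusted p 0.307).

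**Figure D3:**
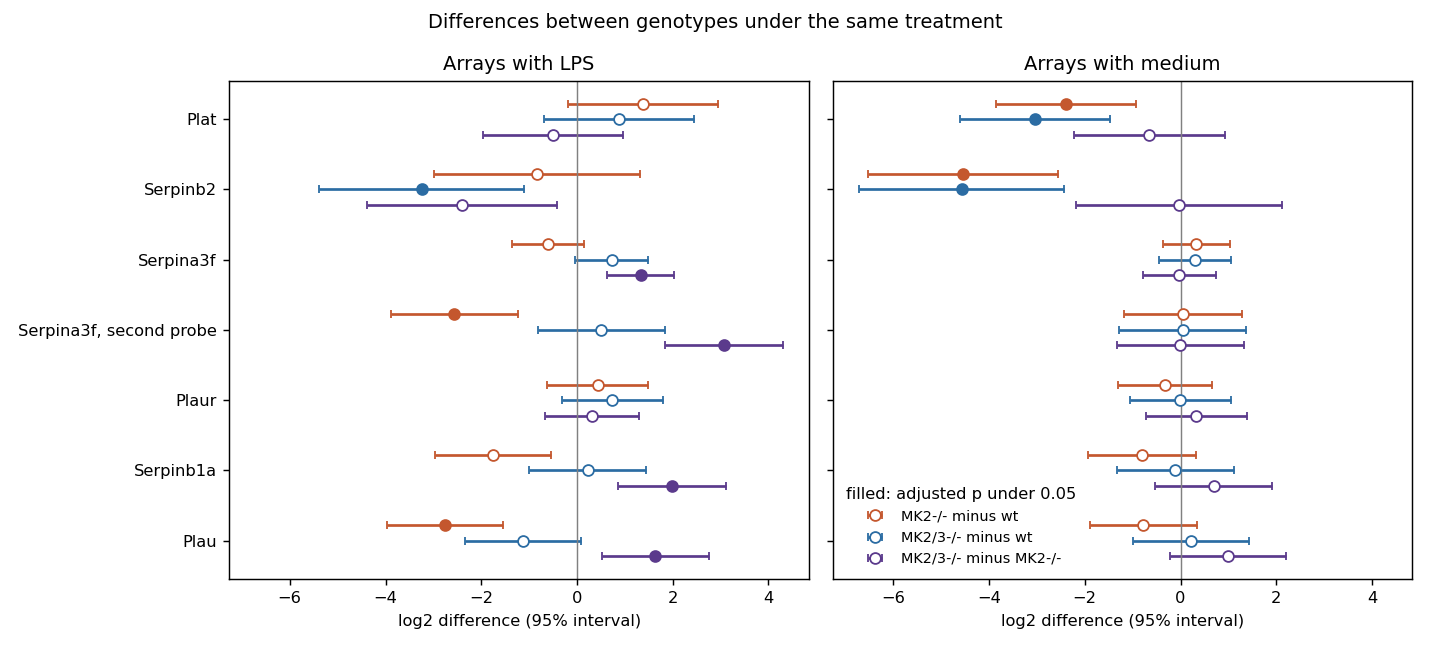
Differences between genotypes (horizontal axis, log2 difference, with 95% intervals) for each probe, with LPS in the left panel and with medium in the right panel, filled where called. With LPS the interval of Plau in MK2-/- minus wt lies below 0, and with medium those of Serpinb2 and Plat in both knockouts minus wt lie below 0.

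With medium alone, Serpinb2 and Plat were lower in both knockouts than in wt BMDM, and the other 4 measured members were not called, except that scaling to the 75th percentile gave 1.25 (adjusted p 0.049) for Serpina3f in MK2/3-/- minus wt. Of all genes 8.88% were called between MK2-/- and wt (3.13% lower), 2.02% between MK2/3-/- and wt (0.524% lower) and 2.83% between MK2/3-/- and MK2-/-, where no member was called and none had an unadjusted p below 0.05. The differences from wt share the 4 wt medium arrays.

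Serpinb2, with medium, was lower in MK2-/- than in wt BMDM (log2 difference -4.54 ± 0.95, SE, adjusted p 0.00861). It was also lower in MK2/3-/- than in wt BMDM (-4.57 ± 1.02, SE, adjusted p 0.0337). All knockout arrays lay below those of wt, but the wt arrays themselves ranged from 5.59 to 10.43. The difference for MK2/3-/- was -3.62 (adjusted p 0.0918) without wt medium replicate 1, -4.26 (adjusted p 0.0747) without wt medium replicate 4, and had an adjusted p of 0.181, 0.0655 and 0.0648 without MK2/3-/- medium replicates 1, 2 and 3. For MK2-/- the call held without any 1 array, and the difference fell in size to -3.59 (adjusted p 0.0316) without wt medium replicate 1 and grew to -5.20 without wt medium replicate 2.

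Plat, with medium, was lower in MK2-/- than in wt BMDM (log2 difference -2.39 ± 0.70, SE, adjusted p 0.0403), with overlapping arrays. In MK2/3-/- BMDM it was 3.04 ± 0.75 (SE) lower on the log2 scale (adjusted p 0.0442), without overlap. The MK2-/- call was lost without wt medium replicate 1 (adjusted p 0.118), wt medium replicate 4 (adjusted p 0.123), MK2-/- medium replicate 2 (adjusted p 0.138) or MK2-/- medium replicate 3 (adjusted p 0.0944), and the MK2/3-/- call without any 1 of 10 arrays, where adjusted p reached 0.239 without MK2/3-/- medium replicate 1. Without the arrays of low Y-linked signal the Plat differences had adjusted p of 0.101 and 0.052.

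The wt medium arrays with high Serpinb2 and Plat also carried more stromal signal. Their summed stromal and endothelial markers were 16.64, 11.60, 13.63 and 14.75, and Serpinb2 and Plat were highest on replicates 1 and 4. In MK2-/- BMDM with medium the sums were 11.14, 10.46, 12.63 and 14.66 and in MK2/3-/- 9.11, 10.56 and 15.50, while Serpinb2 was not well above background on any of these 7 arrays. Plat was well above background on 1 of them, MK2/3-/- replicate 3 (4.52), which had the sum of 15.50. In MK2-/- BMDM its highest signal, 4.86, was on replicate 1, which had the sum of 11.14, and was not well above background. None of the 5 markers was called in medium between either knockout and wt, but their spread was wide. Mean Col1a1 was 12.41 in wt, 9.51 in MK2-/- and 8.86 in MK2/3-/- BMDM, with SDs of 2.24, 2.61 and 4.55. The median differences of the 5 markers from wt were -1.41 in MK2-/- and -1.04 in MK2/3-/- BMDM. The part of these markers in the Serpinb2 and Plat differences was not tested. With raw signals corrected by the normexp method and an offset of 50, the Serpinb2 differences were -2.04 (adjusted p 0.0939) and -2.05 (adjusted p 0.184) and those of Plat -0.80 (adjusted p 0.123) and -1.004 (adjusted p 0.136).

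Whether the LPS response itself differed between genotypes was tested by interaction contrasts, in which an additive slide effect cancels. No member was called in any of the 3, in which 0%, 0.689% and 0.0671% of all genes were called by limma. At an unadjusted p below 0.05 the members numbered 3 between MK2-/- and wt (Plat, Serpinb2 and Plau), 1 between MK2/3-/- and wt (Plat) and 1 between MK2/3-/- and MK2-/- (Serpina3f), beside 1684, 2543 and 1923 of all genes. The LPS response of Plat was larger by 3.77 (95% interval 1.62 to 5.91, adjusted p 0.353) in MK2-/- and by 3.92 (1.69 to 6.15, adjusted p 0.0874) in MK2/3-/- than in wt BMDM. When arrays were weighted by their quality, the latter was 4.42 (adjusted p 0.0334) for Plat. Since Plat was well above background on none of the 4 MK2-/- medium arrays and on 1 of the 3 of MK2/3-/-, the sizes of these differences depend on dim signals, and normexp background correction gave 2.17 (adjusted p 0.186) and 1.89 (adjusted p 0.0689). For Serpinb2 the corresponding values were 3.71 (0.79 to 6.63, adjusted p 0.552) and 1.33 (-1.70 to 4.36, adjusted p 0.841), with no knockout medium array above background, and normexp turned the latter to -0.93 (adjusted p 0.868). For Plau the values were -1.98 (-3.63 to -0.33, adjusted p 0.591) and -1.35 (-3.06 to 0.37, adjusted p 0.598), and normexp gave -0.44 (adjusted p 0.854) for the former. For Serpina3f the response in MK2/3-/- minus that in MK2-/- was 1.36 (0.32 to 2.39, adjusted p 0.435) on the brighter probe and 3.08 (1.27 to 4.88, adjusted p 0.249) on the other.

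Of 27 further genes of the plasminogen system 26 were tested. With LPS 6 were higher and 4 lower in wt (of all genes 18.6% and 23.5%), 7 and 5 in MK2-/- (17.6% and 27.2%) and 7 and 8 in MK2/3-/- BMDM (20.3% and 28%). Their median LPS response in wt was 0.22, against -0.04 for all genes. Among the larger changes in wt were those of F3, the coagulation starter tissue factor (3.71 ± 0.79, SE, adjusted p 0.000925), Procr, the protein C receptor (3.56 ± 0.48, adjusted p 8.01e-06), and Serpinb8 (2.76 ± 0.28, adjusted p 2.95e-07). Between genotypes with LPS, 1 of the 26 was higher and 1 lower in MK2-/- than in wt, 3 were higher and 4 lower in MK2/3-/- than in wt, and none was called between the knockouts, where 11.6%, 23.7% and 13.6% of all genes were called. The gene that was lower in MK2-/- was Thbd, which encodes the anticoagulant receptor thrombomodulin and is named here after its values were seen (-4.13, adjusted p 0.00972), and it was also lower in MK2/3-/- than in wt BMDM (-4.29, adjusted p 0.00275). With LPS, Thbd was well above background on 2 of 4 MK2-/- and 1 of 4 MK2/3-/- arrays. The sizes of these differences depend on dim signals, and the wt arrays with LPS ranged from 7.54 to 10.21.

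The other serpins were counted by clade, against 18.6% of all genes higher and 23.5% lower with LPS in wt. Of 8 other A3 serpins tested, 1 was higher with LPS in wt, Serpina3i (2.78 ± 0.32, SE, adjusted p 1.33e-06), which lies next to Serpina3g on chromosome 12. Of 16 other clade B serpins tested, 1 was higher in wt, Serpinb8, and 3 were lower: Serpinb6c (-2.02 ± 0.42, adjusted p 0.000663), Serpinb6a (-1.69 ± 0.22, adjusted p 6.8e-06) and Serpinb6e (-0.68 ± 0.25, adjusted p 0.0345). Of 18 tested serpins of other clades 5 were higher and 0 lower, among them the antithrombin gene Serpinc1 (1.29 ± 0.38, adjusted p 0.0113), Serpina1a (1.05 ± 0.24, adjusted p 0.00149) and Serpina6 (0.95 ± 0.34, adjusted p 0.0313). The median LPS responses in wt were 0.12 for the A3 serpins, -0.28 for clade B and 0.57 for the other clades. Among 16 proteases that serpins inhibit, Plau and Plat included, 5 were higher and 5 lower in wt, and beside Plat the largest rises were those of Ctsc, cathepsin C (2.23 ± 0.25, adjusted p 9.92e-07), and Casp1, caspase-1 (2.19 ± 0.18, adjusted p 1.52e-08). Serpinb8 is in 2 of these lists.

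The serpin genes lie in clusters along the chromosomes. Within 20 protein-coding genes of Serpina3f on chromosome 12 lie Serpina3g and 8 further A3 serpins, 7 of these 8 tested. On chromosome 1, 11 clade B serpins lie as near to Serpinb2, 6 of them tested. Serpinb1a on chromosome 13 has 14 such neighbours, 10 of them tested. In medium, where Serpinb2 was lower in MK2-/- BMDM, its neighbour Serpinb11 was also lower (-1.80, adjusted p 0.0463) while Serpinb8 was not called (-0.32, adjusted p 0.467). With LPS, 4 of the 16 other clade B serpins tested were higher in MK2/3-/- than in MK2-/- BMDM and 0 lower. Of all genes 7.75% were higher. The 4 were Serpinb11 (4.22, adjusted p 5.88e-05), Serpinb6d (1.62, adjusted p 0.000283), Serpinb9 (1.36, adjusted p 0.0448) and Serpinb6e (0.83, adjusted p 0.0325). Beside Serpina3f, Serpina3c (2.49, adjusted p 0.000421) and Serpina3b (0.71, adjusted p 0.027) were higher in MK2/3-/- than in MK2-/- BMDM with LPS as well. With medium, 3 of these 16 clade B and 1 of the 8 other A3 serpins were likewise higher in MK2/3-/- than in MK2-/- BMDM and 0 lower, against 2.83% of all genes called. Mean medium levels in MK2/3-/- and MK2-/- BMDM were 6.75 and 3.80 for Serpinb11, 10.07 and 8.52 for Serpinb6d, and 7.61 and 6.85 for Serpinb9. They were 8.58 and 7.58 for Serpinb6e, 5.41 and 2.84 for Serpina3c, and 7.70 and 7.34 for Serpina3b. Serpinb11 and Serpina3c were well above background on none of the MK2-/- arrays, with LPS or medium. The sizes of their differences from MK2-/- BMDM, and of MK2-/- from wt, therefore depend on dim signals. The neighbours named here were chosen after their values were seen.

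**Figure D4:**
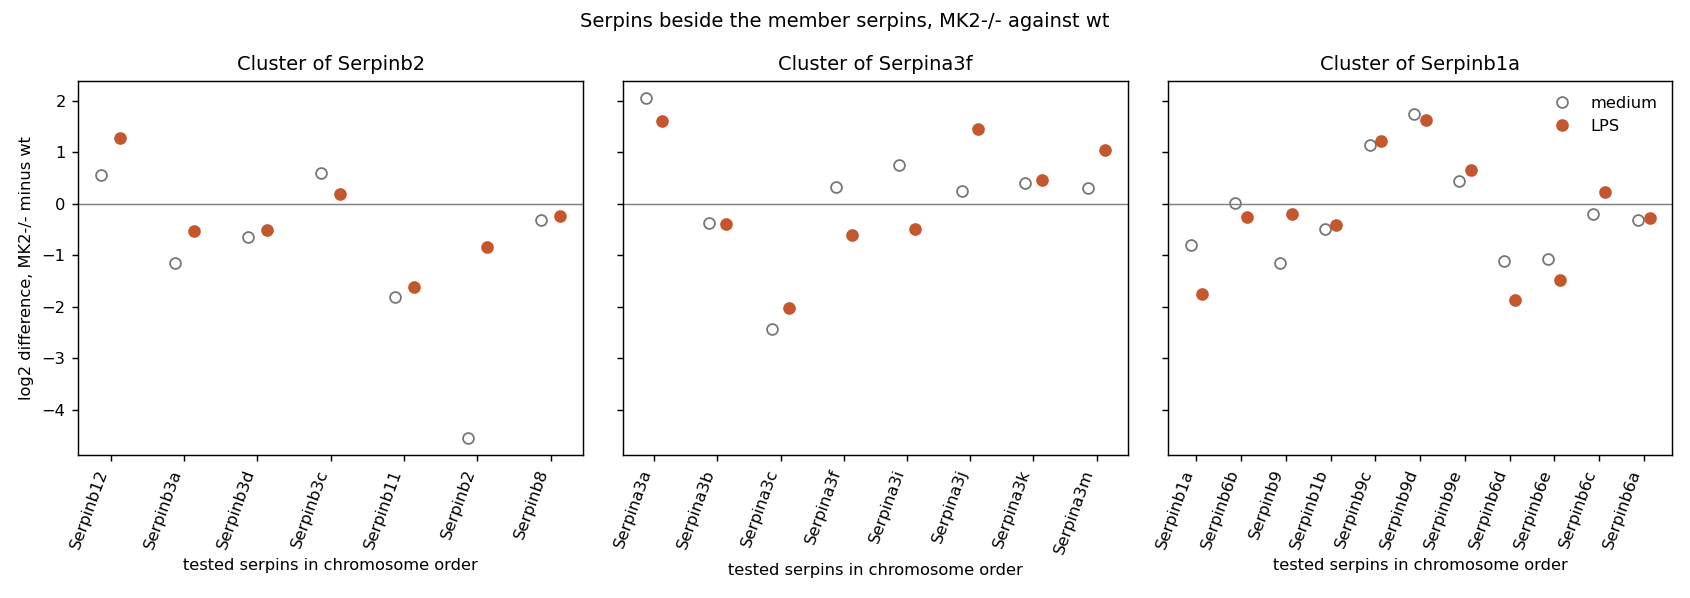
Differences of MK2-/- from wt (vertical axis, log2) for the serpin genes around Serpina3f, Serpinb2 and Serpinb1a in chromosome order (horizontal axis, tested genes), with medium and with LPS. Serpinb2 lies lower in medium than its tested neighbours, and Serpina3c lies below 0 in both.

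The genes whose log2 signals followed those of a member most closely were ranked by Pearson r over the 22 arrays, which share slides and treatments, as a description. For Serpina3f they were Tap1 (0.990), Ccrl2 (0.990) and Il27 (0.990). For Plat they were Ptgs2 (0.985), which encodes cyclooxygenase-2, Ccnd2 (0.984) and Vcam1 (0.983), and for Serpinb2 they were Pdpn (0.948), Ddx21 (0.943) and Il17rd (0.938). For Plaur they were Gm4907 (0.966), Itga5 (0.965) and Ppp2r2a (0.960), for Plau Nanos1 (0.954), Fam3c (0.942) and Fbxl17 (0.939), and for Serpinb1a H2ac1 (0.814), Dhrs9 (0.807) and Gm15760 (0.782). Among the members themselves r was highest between Plat and Serpina3f (0.922) and most negative between Plat and Plau (-0.851).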

How the data were processed

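Total RNA of 22 BMDM samples was labelled with Cy3 and hybridised to Agilent mouse arrays. Per the file headers, the deposited intensity values (processed, median and local background signals) came from Agilent Feature Extraction 11.0.1.1, which subtracts background. The deposited log2 values of the series are the authors' normalised data (GeneSpring), quantile normalised and centred per probe, per their methods. They were used as an alternative, and their columns had an r of 0.993 to 1.000 with the arrays' own values centred likewise, slopes of 0.971 to 0.995 and column medians of -0.07 to 0.08.

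Outlier-flagged spots were left out, and processed signals were quantile normalised on the log2 scale over spots and then averaged per probe. Probes were kept where well above background on at least 3 arrays. Of 29150 RefSeq probes 27509 were named through a RefSeq gene list (GRCm38.p6). The brightest probe stood for its gene. Groups came from the labels. One mean per group over all 22 arrays was fitted with limma 3.58.1 (R 4.3.3), with eBayes and Benjamini-Hochberg adjustment, and tested on simulated data. Arrays of one genotype shared a slide, so no slide term could be fitted between genotypes. Named genes were all members, up to 4 genes of each list with the largest called LPS change in wt, genes called in an interaction, and the 3 most alike genes of each member, and others are said to be chosen after their values were seen. Members and lists were chosen with earlier results of these data known. A gene that this rule names is not reported here. Alternatives are given at the end.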

Additional observations from a re-analysis of the deposited data

Results flagged for a closer look

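Serpinb1a in wt BMDM with medium had 1 array apart from the others: replicate 3 was at 6.22 and the next lowest at 7.69, so that the gap was 0.884 of the range of the group. Of 28 groups of 4 arrays examined this was the only such array, and chance gives about 1 in 20. Serpinb1a was not called in any comparison that uses this group.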

How the results depend on the processing

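Of 24 called results of members, 24 kept their sign under 37 other settings, 13 were called under all of them and 18 without any 1 of the 22 arrays. The results that lost a call were differences between genotypes and, by the t-test after adjustment, the LPS responses of Plaur and Serpinb2 in wt. The numbers of members called with LPS (1 for MK2-/- minus wt, 1 for MK2/3-/- minus wt and 3 for MK2/3-/- minus MK2-/- as reported) were 2, 2 and 2 with normexp background correction, 2, 0 and 1 in fits on the compared groups alone, and 1, 0 and 1 with array weights. They were 3, 3 and 3 by the methods' t-test unadjusted and 0, 0 and 1 after Benjamini-Hochberg, which also called 3 of 5 members with LPS in wt. With medium, 2 members were called in each knockout minus wt. The 75th percentile scaling called 1 in MK2-/-, normexp 0 and 0, fits on the compared groups 1 and 0, the t-test 1 and 1 unadjusted and 0 and 0 adjusted, and the authors' table and no filter on dim probes 1 each in MK2/3-/-. Without the arrays of low Y-linked signal 1 member was called in MK2/3-/- minus MK2-/- with LPS and 1 and 1 with medium. Taking the probe with the highest rise gave 2 in MK2-/- minus wt, and array weights gave 1 (Plat) in the interaction of MK2/3-/- with wt. Leaving out 1 array gave 1 to 2, 0 to 2 and 1 to 3 members with LPS and 1 to 2 and 0 to 2 with medium. Of LPS and medium arrays of a genotype, 7 of 10 pairs with the same number and 7 of 10 with the same letter in the array names correlated above 0.1, against 5 of 30 others in either case, so that not every pair met the threshold for treating the numbers as pairing the arrays. With a replicate block by number or by this letter, 2 members were called in MK2-/- minus wt with LPS (Serpinb1a with adjusted p of 0.0483 and 0.0472 beside Plau), and Plau in MK2/3-/- minus MK2-/- had an adjusted p of 0.052 and 0.0523. Over all genes, 75th percentile scaling called 4769 against 2600, 8219 against 5288, 4911 against 1985 and 4278 against 452 genes for both knockouts minus wt with LPS and then with medium. The causes were not tested, and values near background limit the medium comparisons.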
